A study of Mus musculus with 10 samples.

Results

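The genes described here are 8 genes tied to pericytes, the contractile cells that wrap capillaries. They are the growth factor gene Pdgfb, its receptor gene Pdgfrb, and the pericyte markers Rgs5, Cspg4, Notch3, Abcc9, Mcam and Higd1b. They were found by their names in the tables, and all 8 were found among the 16440 genes that are present in all 3 of the deposited tables of heart RNA. The tables compare hearts of male mice at 1 week of age in pairs of groups, with 3 wild type (WT) hearts, 3 Ft1ko hearts and 4 Ft1sm22ko hearts. Ft1 is the name used for the mouse gene Aktip. Ft1ko mice carry a floxed Ft1 allele, derived from a knockout-first allele with flippase, that was recombined by a Cre under the CMV promoter, so that Ft1 is lost constitutively. Ft1sm22ko mice carry the same floxed allele recombined by a Cre under the promoter of sm22, a smooth muscle gene also called Tagln. Cells of the Ft1sm22ko heart that never used that promoter keep Ft1, and pericytes are not a target that the labels name. The RNA came from cardiac tissue as a whole. Fewer cells of a type and less RNA per cell therefore cannot be told apart in any value given here.

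Pericytes sit on the outer face of the capillary wall and share its basement membrane with the endothelium. Endothelial cells secrete the dimer PDGF-BB, encoded by Pdgfb, which binds the tyrosine kinase PDGFRβ on pericytes and draws them to new vessels, and mice without either gene form vessels that lack pericytes. Notch3, a receptor for ligands on the neighbouring endothelium, acts in mural cells, the name for pericytes and vascular smooth muscle cells together. The heart is rich in pericytes, and no single gene marks them. Mcam is also made by endothelium and smooth muscle, Notch3 by smooth muscle, Abcc9 by cardiac and smooth muscle and Pdgfrb by fibroblasts.

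Of the 8 genes, 5 had a promoter sequence in the RefSeq table for GRCm38.p6 that was used here. The 4 that differed between Ft1ko and WT hearts are printed, to set side by side the DNA before the starts of genes that moved in that comparison. Each line gives the 250 bases before the start, 5′ to 3′ on the strand of the gene, and the capitals mark matches to a searched motif. Rgs5 lies at chr1:169655251-169655500 on the plus strand, Cspg4 at chr9:56864854-56865103 on the plus strand, Notch3 at chr17:32166891-32167140 on the minus strand and Abcc9 at chr6:142702275-142702524 on the minus strand.
Rgs5: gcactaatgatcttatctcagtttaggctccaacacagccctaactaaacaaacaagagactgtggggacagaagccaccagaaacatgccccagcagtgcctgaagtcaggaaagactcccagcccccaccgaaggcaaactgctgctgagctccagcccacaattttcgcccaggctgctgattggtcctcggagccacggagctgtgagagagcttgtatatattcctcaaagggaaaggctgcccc
Cspg4: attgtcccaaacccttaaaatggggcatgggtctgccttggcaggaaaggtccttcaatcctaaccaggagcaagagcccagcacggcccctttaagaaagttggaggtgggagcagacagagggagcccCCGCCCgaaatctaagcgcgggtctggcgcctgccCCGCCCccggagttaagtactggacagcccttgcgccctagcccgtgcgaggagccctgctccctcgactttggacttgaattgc
Notch3: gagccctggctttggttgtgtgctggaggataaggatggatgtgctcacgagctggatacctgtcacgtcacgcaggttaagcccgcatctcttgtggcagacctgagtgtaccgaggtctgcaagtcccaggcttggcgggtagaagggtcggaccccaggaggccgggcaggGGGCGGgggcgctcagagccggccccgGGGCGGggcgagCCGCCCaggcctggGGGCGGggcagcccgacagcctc
Abcc9: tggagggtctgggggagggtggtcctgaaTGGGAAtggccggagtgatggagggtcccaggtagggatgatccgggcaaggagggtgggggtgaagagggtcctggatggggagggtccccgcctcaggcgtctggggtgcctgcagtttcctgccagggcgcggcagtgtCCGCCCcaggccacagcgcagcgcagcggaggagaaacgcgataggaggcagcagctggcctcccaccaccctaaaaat
Matches were sought on both strands. The searched letters were TATAAA for the core promoter element of that name, TGGGAA for the core bound by the Notch effector RBPJ and GGGCGG for the GC box, which reads in reverse complement on the opposite strand, and the CArG box of serum response factor was searched as well. No match overlapped another. The Notch3 sequence held 4 GC boxes within 76 bases of the start and had a GC content of 68.8%. The promoter of Mcam, not printed because Mcam was not called, also held several GC boxes and had a higher GC content, 73.6%. The Cspg4 sequence held 2 GC boxes and had a GC content of 60.4%, and the Abcc9 sequence, at 66.8%, held 1 GC box and a TGGGAA that began 221 bases before the start. The Rgs5 sequence had the lowest GC content, 53.6%, and held none of these letters, which says only that they are not in this window. Of 32851 mouse promoters of the same length, 32.7% held a GC box, 21.6% TGGGAA, 12.4% TATAAA and 1.47% a CArG box, so that a match in any single promoter is common for the first 2 of these.

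The authors' deposited tables hold 1 mean normalized count, 1 log2 fold change and 1 standard error (SE) per gene and comparison. Values of single hearts and library depths are not analysed here, and whether the hearts of 2 groups overlap cannot be stated. Group means were worked out from the mean count and the fold change, and have no error of their own. The scale of the means differs between tables, so that means were compared only inside a table. Fold changes are mutant over WT, or Ft1sm22ko over Ft1ko. A gene was called higher or lower where the p of the authors' DESeq2 fit, adjusted here by Benjamini-Hochberg over all genes with a p, was under 0.05, and the adjusted p values below are all of this kind. The targeted gene, Aktip, was lower than WT in both mutants, with a log2 fold change of -1.93 for Ft1ko (SE 0.27, adjusted p = 5.08e-11) and -1.21 for Ft1sm22ko (SE 0.27, adjusted p = 0.000107), and was 0.72 higher in Ft1sm22ko than in Ft1ko hearts (SE 0.28, adjusted p = 0.0466). Aktip was therefore reduced in both mutant groups. Whole-gene values of whole hearts show neither in which cells it was lost nor that its loss in Ft1ko was complete. The paper reports full depletion of Ft1 in Ft1ko by Q-PCR, and no transcripts over the deleted part of the gene.

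The pericyte genes moved in both directions in each mutant. In Ft1ko against WT, Abcc9, Cspg4 and Rgs5 were lower, Notch3 was higher, and Pdgfb, Pdgfrb, Mcam and Higd1b did not pass the test. These 4 of 8 calls stand against 35.7% of all genes called in this comparison, 19.7% higher and 16.1% lower. In Ft1sm22ko against WT, Rgs5 was higher, Pdgfrb and Higd1b were lower and the other 5 did not pass, so that 3 of 8 were called against 32.2% of all genes, 16.2% higher and 16% lower. Between the mutants, Rgs5 and Abcc9 were higher in Ft1sm22ko and none was lower by the authors' DESeq2 p (1 at an unadjusted p under 0.05, Notch3), so that 2 of 8 were called against 19.8% of all genes, 10.8% higher and 9% lower. No count of members called, in all or in 1 direction, lay more than 2 genes away from what the background share would give among 8 genes. Against WT the median log2 fold change of the 8 was -0.87 for Ft1ko and -0.17 for Ft1sm22ko, and the direct comparison gave a median of 0.21. Over all genes tested these medians were 0.13, 0.06 and -0.05, and over the genes that average 100 normalized counts or more, as all 8 members do, they were -0.11, -0.05 and 0.03. None of the 7 calls against WT passed a Bonferroni adjustment, which 8.98% of all genes passed in Ft1ko and 7.62% in Ft1sm22ko. Of the 2 calls between the mutants, both for genes named above, each passed it, as did 2.45% of all genes.

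**Figure D1:**
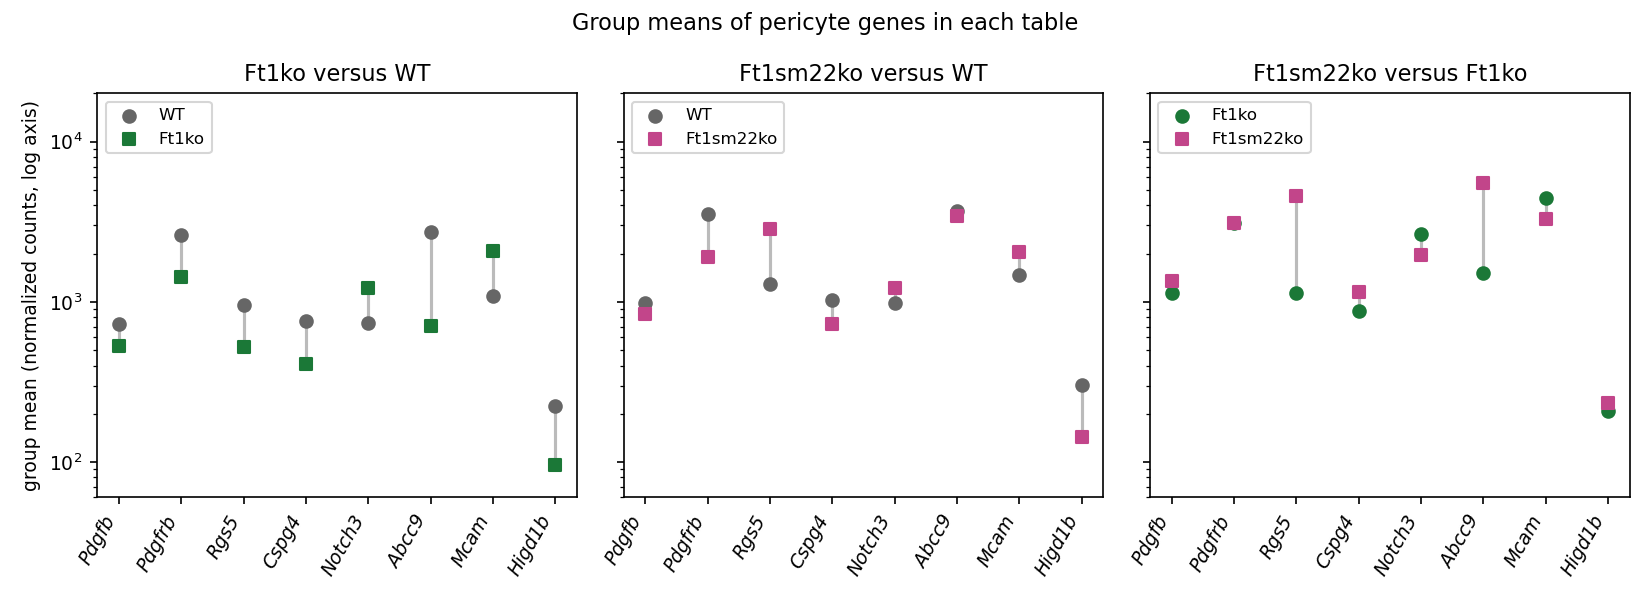
Mean normalized counts (log axis) of the 8 genes in the 2 groups of each table, worked out from the deposited mean and fold change, without error bars because no values per heart were given. A grey line joins the 2 group means of a gene: the longest falls on Abcc9 in Ft1ko versus WT (2743 to 702) and on Rgs5 in Ft1sm22ko versus Ft1ko (1129 to 4576), and heights are not comparable between panels.

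Levels were divided by the kilobases of all annotated exons of a gene (GENCODE M21), not of the transcripts expressed. The order of genes therefore depends in part on the annotation. In the table of Ft1ko against WT, the WT means began with Pdgfrb at 480.3 normalized counts per kb. Abcc9 at 328, Mcam at 324, Higd1b at 265, Rgs5 at 211, Pdgfb at 176, Notch3 at 90.6 and Cspg4 at 63.3 followed. The Ft1ko means of the same table put Mcam first at 619 per kb, with Pdgfrb at 263, Notch3 at 151, Pdgfb at 127, Rgs5 at 115, Higd1b at 113, Abcc9 at 83.9 and Cspg4 last at 34.2. In the table of Ft1sm22ko against WT, the Ft1sm22ko means put Rgs5 first at 625 per kb, followed by Mcam at 609.5, Abcc9 at 409, Pdgfrb at 350.2, Pdgfb at 201, Higd1b at 169.9, Notch3 at 151 and Cspg4 at 60.5. All of the pericyte markers were thus detected in every group, Cspg4 was the lowest each time, and Abcc9 took the second place in WT and the last but one in Ft1ko. These levels carry no spread, so that it cannot be said which neighbours in an order differ.

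Pdgfb, the ligand, passed the test in no comparison. Its means were 732 normalized counts in WT and 527 in Ft1ko hearts, a log2 fold change of -0.47 with an SE of 0.56 (95% interval -1.57 to 0.63, adjusted p = 0.542). In the other table against WT they were 987 in WT and 838 in Ft1sm22ko hearts, a log2 fold change of -0.24 with an SE of 0.20 (95% interval -0.63 to 0.15, adjusted p = 0.384). The second interval leaves room for a fall of at most 0.63 on the log2 scale, whereas the first leaves room for one of up to 1.57. Between the mutants the means were 1139 in Ft1ko and 1347 in Ft1sm22ko hearts, a log2 fold change of 0.24 with an SE of 0.48 and an interval of -0.70 to 1.18 (adjusted p = 0.779).

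Pdgfrb, the receptor of PDGF-BB on mural cells and fibroblasts, was lower in Ft1sm22ko hearts. Its means in that table were 3557 normalized counts in WT and 1918 in Ft1sm22ko, a 1.85-fold lower level and a log2 fold change of -0.89 (SE 0.23, 95% interval -1.35 to -0.44, adjusted p = 0.000946). The Ft1ko table gave nearly the same estimate, with means of 2631 in WT and 1438 in Ft1ko and a log2 fold change of -0.87, but with an SE of 0.44 (95% interval -1.73 to -0.01, adjusted p = 0.11). The receptor gene thus passed in 1 mutant and missed in the other with a similar estimate, and the difference lay in the error. Between the mutants the test gave no difference, with means of 3109 in Ft1ko and 3085 in Ft1sm22ko, a log2 fold change of -0.01 and an interval of -0.70 to 0.67 (adjusted p = 0.99), which leaves room for a difference of up to 0.70 in either direction.

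Rgs5, a GTPase-activating protein that shortens signals of receptors coupled to Gq and Gi and is among the most used pericyte markers, was lower than WT in Ft1ko hearts and higher than WT in Ft1sm22ko hearts. The means were 961 normalized counts in WT and 524 in Ft1ko, a 1.84-fold lower level and a log2 fold change of -0.88 (SE 0.32, 95% interval -1.51 to -0.24, adjusted p = 0.0228). This call is lost, at a log2 fold change of -0.77 and an adjusted p of 0.0506, once the fold changes are centred on genes that average 100 normalized counts or more. In the table of Ft1sm22ko the means were 1299 in WT and 2842 in Ft1sm22ko, a 2.19-fold higher level and a log2 fold change of 1.13 (SE 0.28, 95% interval 0.59 to 1.67, adjusted p = 0.000389). The direct test between the mutants gave the smallest p among the tests of the 8 genes. The means were 1129 in Ft1ko and 4576 in Ft1sm22ko, a 4.05-fold difference and a log2 fold change of 2.02 (SE 0.24, 95% interval 1.56 to 2.48, adjusted p = 1.91e-14). By p, Rgs5 was rank 8 of 17169 genes tested between the mutants.

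Abcc9, the sulfonylurea receptor subunit SUR2 of ATP-sensitive potassium (KATP) channels, was lower in Ft1ko hearts and close to WT in Ft1sm22ko hearts. Its means were 2743 normalized counts in WT and 702 in Ft1ko, a 3.91-fold lower level and a log2 fold change of -1.97 (SE 0.44, 95% interval -2.83 to -1.10, adjusted p = 7.57e-05), the largest change against WT among the 8 genes. In the other table they were 3689.9 in WT and 3428 in Ft1sm22ko, a log2 fold change of -0.11 with an SE of 0.24 (95% interval -0.58 to 0.37, adjusted p = 0.778). The mutants differed directly, with means of 1515 in Ft1ko and 5518 in Ft1sm22ko, a 3.64-fold difference and a log2 fold change of 1.87 (SE 0.37, 95% interval 1.13 to 2.60, adjusted p = 3.8e-05, rank 289 by p). Exons of an antisense gene, 5330439B14Rik, overlap 1.89% of the exon bases of Abcc9, and the strand setting of the counting is not given in the sources used here.

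Cspg4, which encodes the surface proteoglycan NG2, was lower in Ft1ko hearts. The means were 756 normalized counts in WT and 409 in Ft1ko, a 1.85-fold lower level and a log2 fold change of -0.89 (SE 0.32, 95% interval -1.51 to -0.26, adjusted p = 0.019). In Ft1sm22ko hearts the mean was 722 against 1020.5 in WT, a log2 fold change of -0.50 that did not pass (SE 0.26, adjusted p = 0.123). Whether the mutants differ in Cspg4 could not be resolved, since the direct test gave 0.40 with an interval of -0.10 to 0.90 (adjusted p = 0.283) on means of 879.8 in Ft1ko and 1159 in Ft1sm22ko.

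Notch3, the Notch receptor of mural cells, went the other way and was higher in Ft1ko hearts. Its means were 733 normalized counts in WT and 1223 in Ft1ko, a 1.67-fold higher level and a log2 fold change of 0.74 (SE 0.25, 95% interval 0.24 to 1.24, adjusted p = 0.0139). In Ft1sm22ko hearts the mean was 1219 against 989.5 in WT, a log2 fold change of 0.30 with an SE of 0.23 (95% interval -0.15 to 0.75, adjusted p = 0.331). The direct test gave -0.43 with an SE of 0.22 (means 2639 in Ft1ko and 1955 in Ft1sm22ko, adjusted p = 0.153), so that a difference between the mutants was not called. Exons of the antisense gene Gm17276 overlap 6.03% of the exon bases of Notch3, the largest such share among the 8 genes.

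Mcam, the adhesion molecule CD146 of endothelium and mural cells, had the largest positive estimate in Ft1ko but did not pass in any comparison. Its means were 1087 normalized counts in WT and 2074 in Ft1ko, a log2 fold change of 0.93 with an SE of 0.47 (95% interval 0.01 to 1.85, adjusted p = 0.107). In Ft1sm22ko hearts the mean was 2042 against 1469 in WT, a log2 fold change of 0.47 (SE 0.28, 95% interval -0.08 to 1.03, adjusted p = 0.195), and between the mutants the log2 fold change was -0.45 (SE 0.39, 95% interval -1.21 to 0.31, adjusted p = 0.451).

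Higd1b, a small protein of the hypoxia-induced HIG1 domain family that marks pericytes of heart and lung, was lower in Ft1sm22ko hearts. The means were 303 normalized counts in WT and 144 in Ft1sm22ko, a 2.11-fold lower level and a log2 fold change of -1.08 (SE 0.28, 95% interval -1.62 to -0.53, adjusted p = 0.000845). The estimate in Ft1ko was of like size, with means of 224 in WT and 95.5 in Ft1ko and a log2 fold change of -1.23, but its SE was 0.86 (95% interval -2.93 to 0.46, adjusted p = 0.272). Like Pdgfrb, Higd1b thus passed only in the table with the smaller error, and the direct test between the mutants gave 0.17 with an interval of -1.37 to 1.72 (adjusted p = 0.913).

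The errors of these genes differed between the tables against WT. The SE in the table of Ft1ko against WT was larger than that in the table of Ft1sm22ko against WT by a median factor of 1.74 over the 8 genes. Over the 16086 genes tested in both tables the median factor was 1.27, and over the 9759 of them that average 100 or more it was 1.33. The number of hearts alone would give 1.07. The factor was largest for Higd1b at 3.10, Pdgfb at 2.81, Pdgfrb at 1.89, Abcc9 at 1.82 and Mcam at 1.65, and small for Cspg4 at 1.25, Rgs5 at 1.17 and Notch3 at 1.11. The spread between hearts that these SE imply, as a coefficient of variation, was 72.8% for Higd1b and 47.4% for Pdgfb in the Ft1ko table, against 24.3% and 17.8% in the Ft1sm22ko table. The first 5 genes therefore needed a much larger change to be called in Ft1ko than in Ft1sm22ko. Which heart or hearts carried that spread is not known without values per heart.

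**Figure D2:**
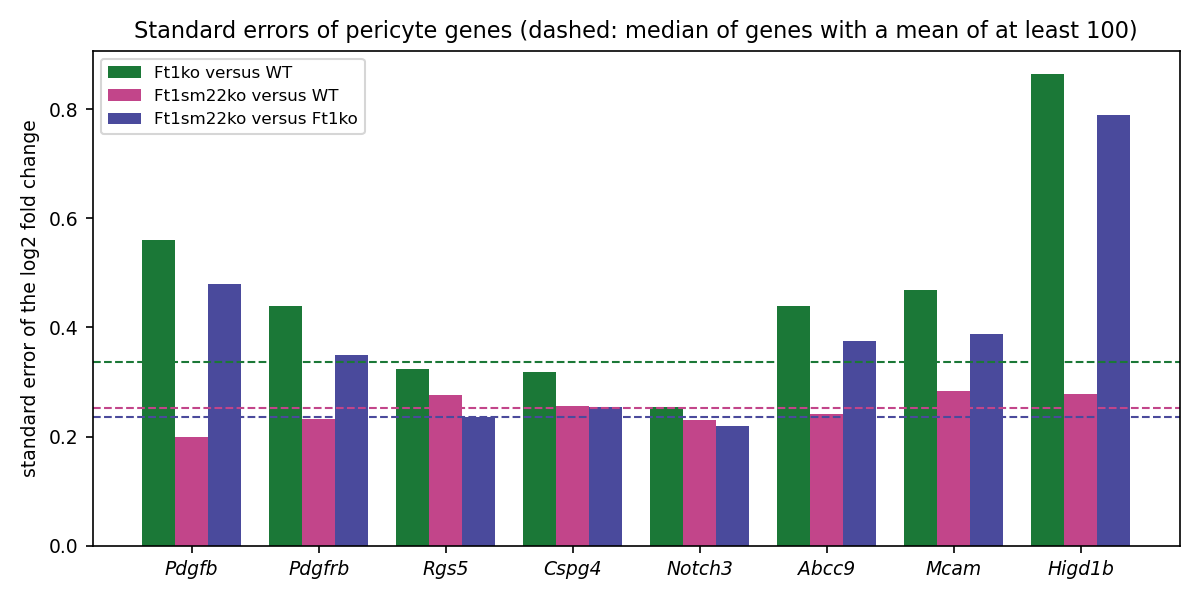
Standard error of the log2 fold change of each of the 8 genes in the 3 comparisons. Higd1b and Pdgfb have SE of 0.86 and 0.56 in Ft1ko versus WT against 0.28 and 0.20 in Ft1sm22ko versus WT, while Notch3 has 0.25 and 0.23.

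The genes of other KATP channel subunits were lower in Ft1ko hearts as well. SUR2 pairs with the pore subunit Kir6.1, encoded by Kcnj8, in pericytes and smooth muscle, and with Kir6.2, encoded by Kcnj11, in cardiac muscle. Of Kcnj8, Kcnj11 and Abcc8, which encodes the other sulfonylurea receptor, 3 of 3 were lower in Ft1ko (median log2 fold change -1.76), 1 of 3 was lower in Ft1sm22ko (median -0.39), and 2 of 3 were higher in Ft1sm22ko than in Ft1ko (median 1.20). Over all genes, 16.1% were lower in Ft1ko, 16% lower in Ft1sm22ko and 10.8% higher between the mutants. A list of 3 genes is too short to weigh against these shares. Kcnj8 had means of 637 normalized counts in WT and 188 in Ft1ko, a log2 fold change of -1.76 (SE 0.52, adjusted p = 0.00314). In Ft1sm22ko its mean was 863 against 854 in WT (log2 fold change 0.01, 95% interval -0.79 to 0.81, adjusted p = 0.983), and the direct test gave 1.78 (SE 0.34, adjusted p = 1.88e-05). Kcnj8 and Abcc9 thus gave the same 3 calls. Kcnj11 differed from them in that it also fell in Ft1sm22ko, by 0.75 on the log2 scale (SE 0.21, adjusted p = 0.00198), after a fall of 1.93 in Ft1ko (SE 0.32, adjusted p = 6.11e-08). Abcc8 was called only in Ft1ko, at -0.81 (SE 0.34, adjusted p = 0.048), and that call is lost when fold changes are centred on the more abundant genes.

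Among the nearest relatives of Rgs5, the small RGS proteins of the R4 family, none was called lower in Ft1ko and higher in Ft1sm22ko. Of 7 analysed here, 2 were higher and 1 lower in Ft1ko, 2 rose in Ft1sm22ko, and the direct comparison placed 3 above Ft1ko. These counts stand beside 35.7%, 32.2% and 19.8% of all genes called in the 3 comparisons. Rgs4, which cardiac muscle also makes, was lower in Ft1ko at a log2 fold change of -1.60 (means 230.02 in WT and 76.0 in Ft1ko, SE 0.35, adjusted p = 4.02e-05), had a log2 fold change of -0.43 in Ft1sm22ko (adjusted p = 0.269) and was 1.18 higher there than in Ft1ko (adjusted p = 0.00582). Rgs3 rose by 0.83 in Ft1sm22ko (SE 0.22, adjusted p = 0.00128), and Rgs16 rose in both mutants, by 1.31 and 1.37, at WT means of 26.9 and 36.0 normalized counts. Rgs8, the other gene called higher in Ft1ko, had a WT mean of 0.307 normalized counts, so that its fold rests on almost no reads. Higd1a, the relative of Higd1b that cardiac muscle makes, was lower in Ft1ko at a log2 fold change of -1.58 (SE 0.45, adjusted p = 0.00254) and was 1.08 higher in Ft1sm22ko than in Ft1ko (SE 0.29, adjusted p = 0.00264). Its call in Ft1ko and lack of one in Ft1sm22ko (log2 fold change -0.50, adjusted p = 0.235) were the reverse of the calls of Higd1b.

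The other ligands and receptors of the PDGF family number 5, so that their counts can hardly be set against the 35.7%, 32.2% and 19.8% of all genes called. Of these 5 genes, 2 rose in Ft1ko and 4 in Ft1sm22ko, and 1 was higher in Ft1sm22ko than in Ft1ko, with medians of 1.01, 1.72 and -0.26. None was lower in any comparison, also at an unadjusted p under 0.05. Pdgfrl, a receptor-like protein without a kinase, rose by 2.91 in Ft1ko (means 41.7 and 314, SE 0.31, adjusted p = 2.09e-18) and by 2.65 in Ft1sm22ko (means 55.8 and 351, SE 0.36, adjusted p = 1.81e-11). Pdgfc, a ligand of PDGFRα, rose by 2.21 in Ft1ko (SE 0.47, adjusted p = 3.47e-05) and 1.86 in Ft1sm22ko (SE 0.42, adjusted p = 0.000118), from WT means of 13.8 and 18.5. Pdgfd, the second ligand that binds PDGFRβ, rose by 1.72 in Ft1sm22ko (means 49.3 and 162, SE 0.32, adjusted p = 2.58e-06) and was 0.68 higher there than in Ft1ko (SE 0.21, adjusted p = 0.0107). In Ft1ko its estimate of 1.01 missed the threshold (adjusted p = 0.0591) and passes when centred on the more abundant genes. Pdgfra, the receptor of fibroblasts, rose by 0.72 in Ft1sm22ko (means 783 and 1292, SE 0.19, adjusted p = 0.00122), in the same table in which Pdgfrb fell by 0.89. Pdgfa passed in no comparison, as was the case for Pdgfb.

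**Figure D3:**
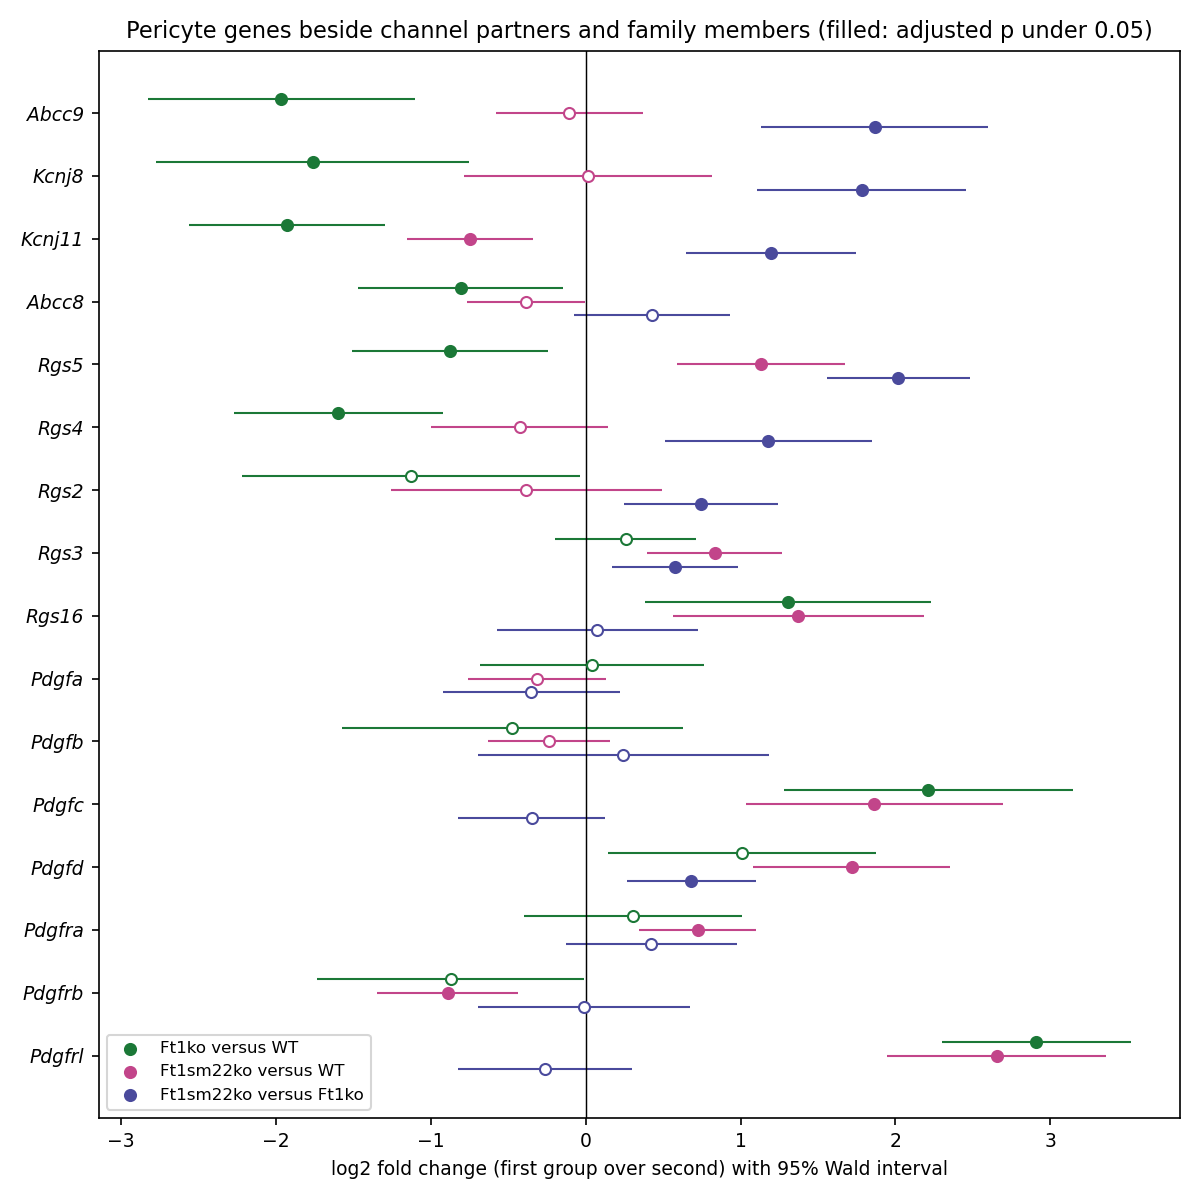
Log2 fold changes with 95% Wald intervals of members and of their channel partners and family members in the 3 comparisons (filled points: adjusted p under 0.05). Abcc9 and Kcnj8 share a filled point left of 0 in Ft1ko versus WT, an open point at 0 in Ft1sm22ko versus WT and a filled point near 1.8 between the mutants (1.87 and 1.78), while Pdgfrl, Pdgfc and Pdgfd lie right of 0 against WT and Pdgfrb lies left of it.

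The relay behind the PDGF receptors, the adaptors and kinases that carry its signal, had no common direction. Of 16 genes, 2 were higher and 1 lower in Ft1ko, 4 were higher and 1 lower in Ft1sm22ko, and 2 were higher and 2 lower between the mutants, with medians of -0.06, 0.07 and -0.16. Centring on the more abundant genes moved the first median to 0.05, took away the 1 lower gene of Ft1ko (Pik3ca) and gave 4 lower genes between the mutants. These shares lie below those of all genes called in the first comparison and close to them in the other 2. Src, a tyrosine kinase that binds the activated receptor, rose by 1.91 in Ft1ko (means 93.4 and 352, SE 0.37, adjusted p = 4.68e-06) and by 0.92 in Ft1sm22ko (SE 0.24, adjusted p = 0.00086), and was lower in Ft1sm22ko than in Ft1ko (means 379 and 759.7, adjusted p = 0.00484). Shc1, an adaptor, rose by 0.85 and 0.63 (adjusted p = 0.002 and 0.00186). Pik3r1, the regulatory subunit of PI3 kinase, fell by 1.18 on the log2 scale in Ft1sm22ko (means 2008 and 883, SE 0.23, adjusted p = 3.04e-06). Its estimate in Ft1ko was -0.59 (adjusted p = 0.165), and the direct test between the mutants gave -0.59 too (adjusted p = 0.0297).

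In the Notch pathway around Notch3, the shares called lay near or below those of all genes (35.7%, 32.2% and 19.8% in the 3 comparisons). Of 14 genes, 2 were higher and 2 lower in Ft1ko, 2 higher and 3 lower in Ft1sm22ko, and 0 higher and 1 lower between the mutants by the authors' DESeq2 p, with medians of 0.33, 0.04 and -0.14. Centring on the median of all genes loses 1 of the 2 higher in Ft1ko (Maml1), and centring on the more abundant genes makes 4 higher in Ft1sm22ko, with Hey2 and Nrarp added. Rbpj, the DNA-binding partner of cleaved Notch, rose by 1.24 in Ft1ko (means 246 and 582, SE 0.25, adjusted p = 6.73e-06) and by 1.12 in Ft1sm22ko (means 331 and 721, SE 0.15, adjusted p = 2.63e-11). Jag2, a ligand, had log2 fold changes of -1.18 for Ft1ko (means 687 and 302, SE 0.31, adjusted p = 0.000763) and -1.02 for Ft1sm22ko (SE 0.21, adjusted p = 2.59e-05). The endothelial receptor Notch4 fell by 1.23 and 0.96 (adjusted p = 0.0335 and 0.000137), the first of which is lost when centred on the more abundant genes. Heyl, a target gene of Notch3 in mural cells, had log2 fold changes of 0.31 and 0.33 that did not pass (adjusted p = 0.491 and 0.319), and Hes1, another Notch target, fell by 0.64 in Ft1sm22ko (SE 0.20, adjusted p = 0.00569).

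Among other signals between endothelium and pericytes the shares called were 5 of 13 in Ft1ko, 6 of 13 in Ft1sm22ko and 1 of 13 between the mutants, beside 35.7%, 32.2% and 19.8% of all genes. Of the 13 genes, 5 were higher and 0 lower in Ft1ko, 5 higher and 1 lower in Ft1sm22ko, and 1 higher and 0 lower between the mutants, where by the same DESeq2 p 1 gene (Tie1) and 1 gene (Sphk1) were lower at an unadjusted p under 0.05 in the first and the last of these. Edn1, which encodes endothelin 1, was among the 5 higher in Ft1ko, and its call is lost when centred on the median of all genes, which adds Tie1 as a lower one. Angpt1, the ligand that pericytes send to the endothelial receptor Tie2, rose by 1.94 in Ft1ko (means 129.7 and 499, SE 0.48, adjusted p = 0.000348) and by 1.54 in Ft1sm22ko (means 174 and 504, SE 0.48, adjusted p = 0.00631). Angpt2, its antagonist, rose by 1.16 and 1.43 (adjusted p = 0.0209 and 0.000693). The endothelin receptor gene Ednrb rose by 1.65 in Ft1ko (SE 0.34, adjusted p = 1.36e-05) and by 1.62 in Ft1sm22ko (SE 0.25, adjusted p = 3.45e-09), and S1pr2, a sphingosine 1-phosphate receptor, by 1.64 and 1.91 (adjusted p = 0.000772 and 9.85e-09). Tie1, the orphan partner of Tie2, fell by 0.71 in Ft1sm22ko (adjusted p = 0.00909) and had an estimate of -0.90 in Ft1ko (adjusted p = 0.0557), which passes under that centring.

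A longer list of 19 further genes used as pericyte markers also moved in both directions. In Ft1ko, 5 were higher and 7 lower (median -0.78), beside 19.7% and 16.1% of all genes. In Ft1sm22ko 3 were higher and 5 lower (median 0.01), beside 16.2% and 16%. Between the mutants 7 were higher and 3 lower (median 0.19), beside 10.8% and 9%. The share lower in Ft1ko and the share higher between the mutants thus lay above those of all genes. Vtn, which encodes vitronectin, had log2 fold changes of -3.90 for Ft1ko (means 656 and 43.9, SE 0.40, adjusted p = 2.78e-20) and -1.49 for Ft1sm22ko (means 882 and 314, SE 0.39, adjusted p = 0.00116). Steap4, a metalloreductase, had the same calls as Abcc9: it fell by 1.31 in Ft1ko (means 345 and 139, SE 0.39, adjusted p = 0.00359), did not pass in Ft1sm22ko (0.49, adjusted p = 0.237) and was 1.81 higher between the mutants (SE 0.28, adjusted p = 2.72e-08). Colec11, a collectin, gave -1.76, -0.50 and 1.27 (adjusted p = 0.00011, 0.222 and 0.00165). Cox4i2, the hypoxia form of a cytochrome oxidase subunit, instead resembled Higd1b and Pdgfrb, with a fall of 1.51 in Ft1sm22ko (SE 0.31, adjusted p = 1.43e-05) and an uncalled estimate of -1.10 in Ft1ko (SE 0.63, adjusted p = 0.163). Against these falls, Gucy1a3 and Gucy1b3, the subunits of the nitric oxide receptor that smooth muscle also makes, rose in both mutants: Gucy1a3 by 1.75 in Ft1ko (adjusted p = 0.000394) and 1.35 in Ft1sm22ko (adjusted p = 4.24e-06), and Gucy1b3 from means of 259 to 730.1 (adjusted p = 0.00189) and of 350 to 706 (adjusted p = 1.64e-07). Des and Rgs4, among the genes lower in Ft1ko, are also made by cardiac muscle. Foxf2, among the higher ones, had means of 0.651 normalized counts in WT and 369 in Ft1ko. Its SE of 2.41 in that table implies a coefficient of variation between hearts of 185%.

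Markers of other cells in the heart moved as well. Over all genes, 19.7% were higher and 16.1% lower in Ft1ko, and 16.2% and 16% in Ft1sm22ko. Between the mutants these shares were 10.8% and 9%. In Ft1ko, 8 of 12 smooth muscle markers were higher and 2 lower (median 1.51), 6 of 10 fibroblast markers were higher (median 1.01), 2 of 14 endothelial markers were higher and 3 lower (median -0.10, or 0.01 when centred on the more abundant genes), and 8 of 10 cardiomyocyte markers were lower (median -2.54). In Ft1sm22ko, 5 smooth muscle markers were higher and 1 lower (median 0.39), 8 fibroblast markers were higher (median 1.56), 4 endothelial markers were higher and 3 lower (median 0.25), and 6 of 9 tested cardiomyocyte markers were lower (median -1.35). Between the mutants, 4 of 12 smooth muscle markers were lower in Ft1sm22ko and none higher (median -0.79, with Smtn called higher when centred on the median of all genes), 6 of 10 cardiomyocyte markers were higher (median 1.23), 2 of 10 fibroblast markers were higher (median 0.30) and none of 14 endothelial markers was called by the DESeq2 p, adjusted or unadjusted (median 0.29). Centring on the median of all genes loses 1 call each of smooth muscle (Tpm2), endothelial (Kdr) and fibroblast markers (Dcn) in Ft1sm22ko and adds Tie1 in Ft1ko and Myh6 between the mutants, and centring on the more abundant genes loses Flt1 and Actc1 in Ft1ko. The summed means of the cardiomyocyte markers fell from 1502000 normalized counts in WT to 280151 in Ft1ko in one table, and from 2020520 in WT to 868210 in Ft1sm22ko in the other. Notch3 and Mcam, which smooth muscle also makes, were the 2 members with positive estimates in Ft1ko. Abcc9, which cardiac muscle and smooth muscle also make, was the member with the largest fall there. Pdgfrb, which mural cells and fibroblasts make, had negative estimates of -0.87 in Ft1ko and -0.89 in Ft1sm22ko. The medians of the smooth muscle and fibroblast lists were positive in both mutants. Rgs5 and Cspg4 were lower in Ft1ko as well. The part of these cells in the values of the 8 genes was not tested.

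Markers of lung epithelium and thymocytes had higher summed means than WT in both mutant groups, and more so in Ft1ko. The 8 lung epithelium markers were all higher in Ft1ko (7 when centred on the median of all genes, which loses Ager), with summed means of 434.6 normalized counts in WT and 48767 in Ft1ko (lowest WT mean of a marker 0.319). In the table of Ft1sm22ko the sums were 597 in WT and 3876 in Ft1sm22ko, with 1 marker tested, which was higher. Thymocyte markers had sums of 76.9 in WT and 5160.1 in Ft1ko, where none of the 8 had a p. Their sums in the other comparison were 104 in WT and 149.9 in Ft1sm22ko. How many hearts carried the sums of markers without a p is not known. Fat markers were higher for 4 of 6 in Ft1ko and 2 of 6 in Ft1sm22ko, Schwann and glial markers for 3 and 2 of 5, and megakaryocyte and platelet markers for 1 and 0 of 6. Of all genes, 19.7% were higher in Ft1ko and 16.2% in Ft1sm22ko. The counts of megakaryocyte and platelet markers did not lie above these shares, and lists this short can hardly be set against them. The part of the tissues behind these lists in the fold changes and the SE of the 8 genes was not tested.

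**Figure D4:**
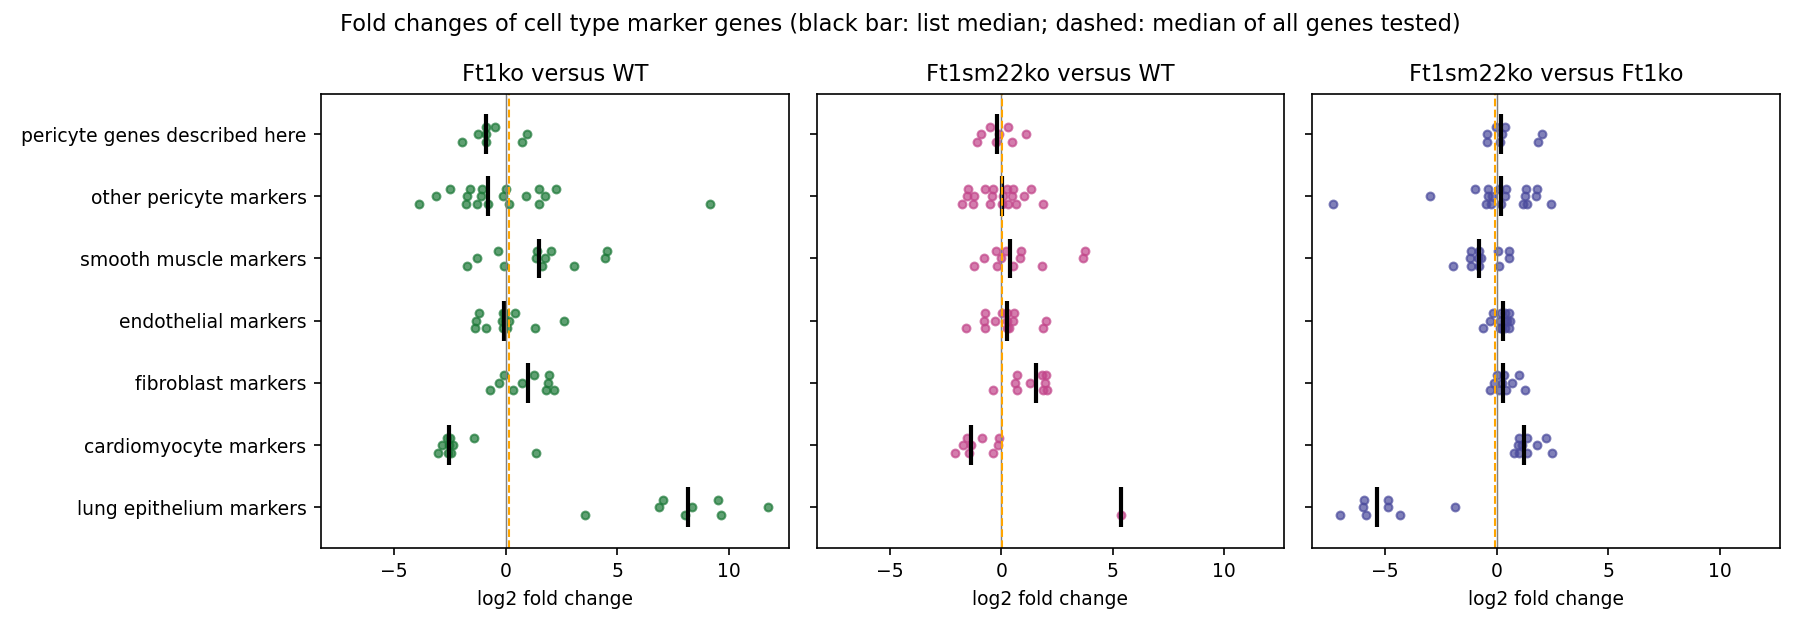
Log2 fold change of every tested gene of 6 cell type marker lists in the 3 comparisons (points) with the median of the list (black bar) and of all genes tested (dashed line), beside the 8 pericyte genes. The lung list has 1 tested gene in the middle panel. In Ft1ko versus WT the lung list has a median of 8.19 and the cardiomyocyte list one of -2.54, while the pericyte genes have a median of -0.87 and spread to both sides of 0.

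Over the pair of fold changes against WT, the genes nearest in pattern were sought for Pdgfb, Pdgfrb and Rgs5. The likeness was measured as the Euclidean distance between the log2 fold changes of 2 genes in both mutants, over 9758 genes that average 100 normalized counts or more in both tables, and since it rests on 2 values per gene it is a description only. No gene lay within 0.1 of Rgs5. The nearest were Mir682 at a distance of 0.235 (log2 fold changes -1.07 and 1.27, both called), Kcne1, a potassium channel subunit, at 0.334 (-1.09, not called, and 0.87, called) and Ppp1r3c, a glycogen-targeting phosphatase subunit, at 0.400 (-0.65 and 0.80, both called). Around Pdgfrb 51 genes lay within 0.1, the nearest being Pfdn2 at 0.0148, Rps4l at 0.0157 and Pex16 at 0.0264. Around Pdgfb 124 genes did, with Nfic at 0.00435, Paip1 at 0.00577 and Pcmtd1 at 0.00769 the nearest. Such neighbours were counted for these 3 genes only.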

How the data were processed

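RNA of 3 WT, 3 Ft1ko and 4 Ft1sm22ko hearts was sequenced by the authors (stranded mRNA libraries, paired-end reads). Per the paper the reads were aligned with STAR to a reference named hg38, although gene names are mouse symbols, and counted with HTSeq, with no versions given. The authors fitted DESeq2 to each pair of groups. The signal that the authors deposited is a gene's mean normalized count over both groups. Their deposited fold changes and SE are log2 values, and their deposited score and 2-sided p-value come from the Wald test. The authors' own adjusted p was not used. Depth per library is unknown. Here signs were turned so that mutants stand over WT, p-values were adjusted by Benjamini-Hochberg over 16748, 16661 and 17169 genes, and 95% Wald intervals and group means were computed with python 3.11.15, numpy 2.4.6, pandas 2.3.3, scipy 1.17.1 and matplotlib 3.10.9. Only the adjustment of p and the calls were tested on simulated data, drawn with the deposited SE.

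The members and the 17 gene lists were chosen with earlier results of these data known. All members were named, and of each list up to 4 called genes per comparison by smallest p. Other list genes were named after their values were seen. Alternatives were Bonferroni, a log2 fold limit of 1, a mean of at least 10 or 100 counts, and centring on the median of all genes or of genes with a mean of at least 100. Genes without a p (128, 277 and 318) were not tested, and the values of 1 list gene are not reported here.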

Additional observations from a re-analysis of the deposited data

Results flagged for a closer look

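The direct test between the mutants passed for 2 of the 8 genes, beside 19.8% of all genes. These 2 are listed here because a difference between groups was itself tested. Rgs5 was higher in Ft1sm22ko than in Ft1ko hearts by 2.02 on the log2 scale (SE 0.24, adjusted p = 1.91e-14), with a log2 fold change against WT of -0.88 in Ft1ko and 1.13 in Ft1sm22ko. Abcc9 was higher by 1.87 (SE 0.37, adjusted p = 3.8e-05), its log2 fold changes against WT being -1.97 and -0.11. In the same comparison 6 of 10 cardiomyocyte markers were higher in Ft1sm22ko (median log2 fold change 1.23), while 4 of 12 smooth muscle markers (Itga8, Mylk, Tagln and Tpm2, median -0.79), 3 of 8 lung epithelium markers (median -5.36) and 2 of 6 fat markers (median -1.71) were lower. Of all genes, 10.8% were higher and 9% lower in Ft1sm22ko than in Ft1ko. The summed means of thymocyte markers were 11101 normalized counts in Ft1ko and 243 in Ft1sm22ko, with 1 of 8 tested. The part of these cells in the values of Rgs5 and Abcc9 was not tested. The number of hearts that show either direction is not known, since the deposited tables hold no values per heart.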

How the results depend on the processing

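Under Bonferroni 0 members were higher and 0 lower in Ft1ko against WT (1 and 3 by Benjamini-Hochberg, 2 and 4 at an unadjusted p under 0.05), and 0 higher and 0 lower in Ft1sm22ko (1 and 2 by either of the others). With a log2 fold limit of 1, 0 were higher and 1 lower in Ft1ko, beside 16.8% and 12.5% of all genes. In Ft1sm22ko 1 was higher (Rgs5) and 1 lower at that limit, beside 9.72% and 8.73%. The 2 higher and 0 lower members between the mutants did not change under any alternative. Centred on the median of all genes, the difference of Pdgfrb between the mutants turned from -0.01 to 0.0389, neither called. Of 128 values of single members under the alternatives, 119 were unchanged, a count that says little about stability. Bonferroni cannot add a call and took away 7 of the 9, and a limit on the mean leaves a fold change as it is. For 8 of the 128, the difference of the fold changes against WT was set against the direct one, without a call. No paired analysis was possible because the tables hold 1 value per gene and comparison, and for the same reason no heart could be left out in turn. A member that missed the threshold may still differ by any amount inside its interval.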
